A study of Mus musculus with 20 samples.

Results

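Immediate early genes are switched on by signals before any new protein is made, and 10 of them were followed through the abdominal aorta of mice: the AP-1 subunit genes Fos, Fosb, Jun, Junb and Jund, the related Atf3, the zinc finger gene Egr1, the nuclear receptor gene Nr4a1, the nuclear protein gene Ier2, and Dusp1, which codes for a phosphatase that switches MAP kinases off. The genes were taken by name; the rule uses no measured value, although the set was drawn up with earlier results of these data known, and the values of their annotated transcripts were added up per gene. All 10 were listed and passed the filter of a mean of at least 1 FPKM (fragments per kilobase of transcript at a common depth, the authors' unit), among 12645 genes tested. RNA of abdominal aorta was sequenced in 5 libraries of mice labelled KO and infused with angiotensin II (Ang II) at 500 ng/kg/min, 5 libraries of wild-type (WT) mice infused with Ang II at that dose, and 5 libraries of WT mice infused with saline; whether each library is a separate mouse is not stated. Another group of 5 libraries, labelled KO and given saline, lists 0 of the 10 genes and was not compared. DAPK1, a kinase that calcium and calmodulin switch on, is named in the series title, while the labels used here give neither the allele behind KO, nor the age of the mice, nor how long the infusion lasted. Ang II, a peptide hormone, makes arteries constrict and drives blood pressure up. Libraries are called by their titles, in which NS stands for saline. Values of all libraries of a group are always given in 1 order, which is KOAng_II402, KOAngII537, KOAngII560, KOAngII612, KOAngII628 for KO Ang II. For WT Ang II it is WTAng_II519, WTAng_II536, WTAngII568, WTAngII580, WTAngII581, and for WT saline WTNS_369, WTNS_373, WTNS_523, WTNS_547, WTNS_550.

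Fos and Jun family proteins pair through leucine zippers to form AP-1, which binds DNA and drives genes of growth, matrix turnover and inflammation. Many of their genes are driven by serum response factor with its partners and by CREB, both downstream of MAP kinases and calcium, and their RNA is short-lived, so that levels come and go within a short time of a stimulus. In cultured vascular smooth muscle cells Ang II is a classical inducer of Fos, Jun and Egr1 through its type 1 receptor. Dusp1 closes the loop, since it is induced by the same kinases that it inactivates.

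The stretch of DNA just before the start of 5 of these genes is shown, because they hold Fosb, Atf3 and Nr4a1, which varied much between libraries, beside Fos and Dusp1, and because CREB binds a short motif found in all of them. Each sequence is the 250 bases before the RefSeq start on GRCm38.p6, written 5′ to 3′ on the strand of the gene. Capitals mark the core of the cAMP response element, TGACG, which reads CGTCA where it lies on the other strand. Atf3 is from chr1:191183334-191183583 (minus strand), Fosb from chr7:19310046-19310295 (minus strand), Nr4a1 from chr15:101266596-101266845 (plus strand), Fos from chr12:85473640-85473889 (plus strand) and Dusp1 from chr17:26508473-26508722 (minus strand).
Atf3: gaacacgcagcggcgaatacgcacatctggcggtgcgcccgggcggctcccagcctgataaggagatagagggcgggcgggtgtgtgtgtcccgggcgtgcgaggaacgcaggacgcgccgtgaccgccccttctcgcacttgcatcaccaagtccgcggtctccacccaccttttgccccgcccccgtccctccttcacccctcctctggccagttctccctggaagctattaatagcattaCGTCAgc
Fosb: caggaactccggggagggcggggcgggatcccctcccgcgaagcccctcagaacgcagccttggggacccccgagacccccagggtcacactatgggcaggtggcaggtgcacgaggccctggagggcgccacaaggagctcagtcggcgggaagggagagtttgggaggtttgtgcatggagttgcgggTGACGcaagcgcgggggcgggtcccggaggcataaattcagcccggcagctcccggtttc
Nr4a1: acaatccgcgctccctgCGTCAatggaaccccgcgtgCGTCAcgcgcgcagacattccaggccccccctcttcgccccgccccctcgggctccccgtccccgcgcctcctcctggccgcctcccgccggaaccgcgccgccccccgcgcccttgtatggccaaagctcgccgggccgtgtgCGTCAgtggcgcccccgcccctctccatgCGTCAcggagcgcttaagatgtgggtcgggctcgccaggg
Fos: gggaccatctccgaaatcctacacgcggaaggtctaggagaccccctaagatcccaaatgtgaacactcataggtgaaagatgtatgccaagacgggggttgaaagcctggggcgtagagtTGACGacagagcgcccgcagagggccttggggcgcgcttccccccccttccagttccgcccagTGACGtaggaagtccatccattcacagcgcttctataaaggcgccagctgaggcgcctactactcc
Dusp1: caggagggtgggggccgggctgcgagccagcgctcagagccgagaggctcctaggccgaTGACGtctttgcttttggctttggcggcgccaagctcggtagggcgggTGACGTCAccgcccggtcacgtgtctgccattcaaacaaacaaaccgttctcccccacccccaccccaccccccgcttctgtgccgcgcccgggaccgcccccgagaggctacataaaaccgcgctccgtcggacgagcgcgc

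Counted to the first base of the motif, the Nr4a1 window holds 4 matches, at 233, 213, 69 and 40 bases before the start. In Dusp1 the 3 matches lie 191, 143 and 140 bases before the start, and the nearer pair overlap as the palindrome TGACGTCA, the full cAMP response element. Fos has matches 129 and 66 bases, Fosb 60 bases and Atf3 7 bases before the start. RefSeq windows of 8 of the 10 genes were used, and Egr1 and Ier2 were left out. Of the other windows Junb has 1 match, at 106 bases, while Jun and Jund have none. The Jund window ends at base 70697738 of chromosome 8, upstream of the annotated gene start at 70698949. Bases next to that annotated start were thus not searched. The Atf3, Nr4a1 and Dusp1 windows lie inside the annotated gene spans given below. Bases before the outer annotated starts of these genes were not searched either. In all, 6 of the 8 windows held TGACG on either strand, against 17.8% of the 32851 promoter windows in the table, and 3 of the 8 held at least 2 copies, against 3.90% of all windows. The full palindrome was in 1 of the 8 windows and in 1.55% of all windows. The AP-1 motif TGANTCA was in 0 of the 8 and in 6.75% of all windows, and the CArG box that serum response factor binds in 0 of the 8 and in 1.47%. These matches describe letters in a short window and are not shown to be bound sites. Counts of 0 cover only these 250 bases and leave out Egr1 and Ier2, and sites farther off were not searched.

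Depth, worked out from the steps in which FPKM rise with each read, was 70.1 to 73.5 megareads in KO Ang II, 59.0 to 74.4 in WT Ang II and 62.8 to 67.1 in WT saline. Smooth muscle markers such as Myh11 and Tagln, summed over 8 genes, were high in every library, at 5567 to 10133 FPKM in KO Ang II, 6971 to 14505 in WT Ang II and 5744 to 12887 in WT saline. Dapk1 RNA overlapped between the groups, at 4.997 to 13.8 FPKM in KO Ang II, 3.96 to 19.9 in WT Ang II and 9.48 to 15.4 in WT saline, so these values do not check the KO label. Intestinal transcripts summed to 38.6 to 84.0 FPKM in KO Ang II, 6.86 to 45.2 in WT Ang II and 3.63 to 7.68 in WT saline, so that KO Ang II lay above WT saline and overlapped WT Ang II. Of the 10 intestinal markers listed, 9 were at 0 in every WT saline library and in WTAng_II519, WTAng_II536 and WTAngII568. No listed marker was at 0 in WTAngII580, WTAngII581 or any KO Ang II library. Fits within libraries that do or do not carry these transcripts are among the other settings tried. Within groups, KOAngII612 and WTNS_523 stood apart in several of the genes described here, so differences are also given without these libraries, a choice made after their values were seen. In whole tissue, fewer cells of a type and less RNA per cell cannot be told apart.

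Across the 10 genes, 0 passed an adjusted p of 0.05 in any of the 3 comparisons, and 0 had groups that did not overlap. Among all genes tested, the share that limma called was 0.0% between KO Ang II and WT Ang II, 0.0% in WT Ang II against WT saline and 0.103% (13 genes) in KO Ang II against WT saline. The groups did not overlap for 1.12% of all genes between KO Ang II and WT Ang II, for 0.996% in WT Ang II against WT saline and for 1.83% in KO Ang II against WT saline. At an unadjusted p under 0.05 the count over the 10 genes was again 0 in each comparison. Among all genes, 7.94% reached it between KO Ang II and WT Ang II, 4.88% in WT Ang II against WT saline and 8.37% in KO Ang II against WT saline. The standard errors of the log2 differences ran from 0.15 for Jun to 0.60 for Fosb, so the precision differed widely between the genes.

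**Figure D1:**
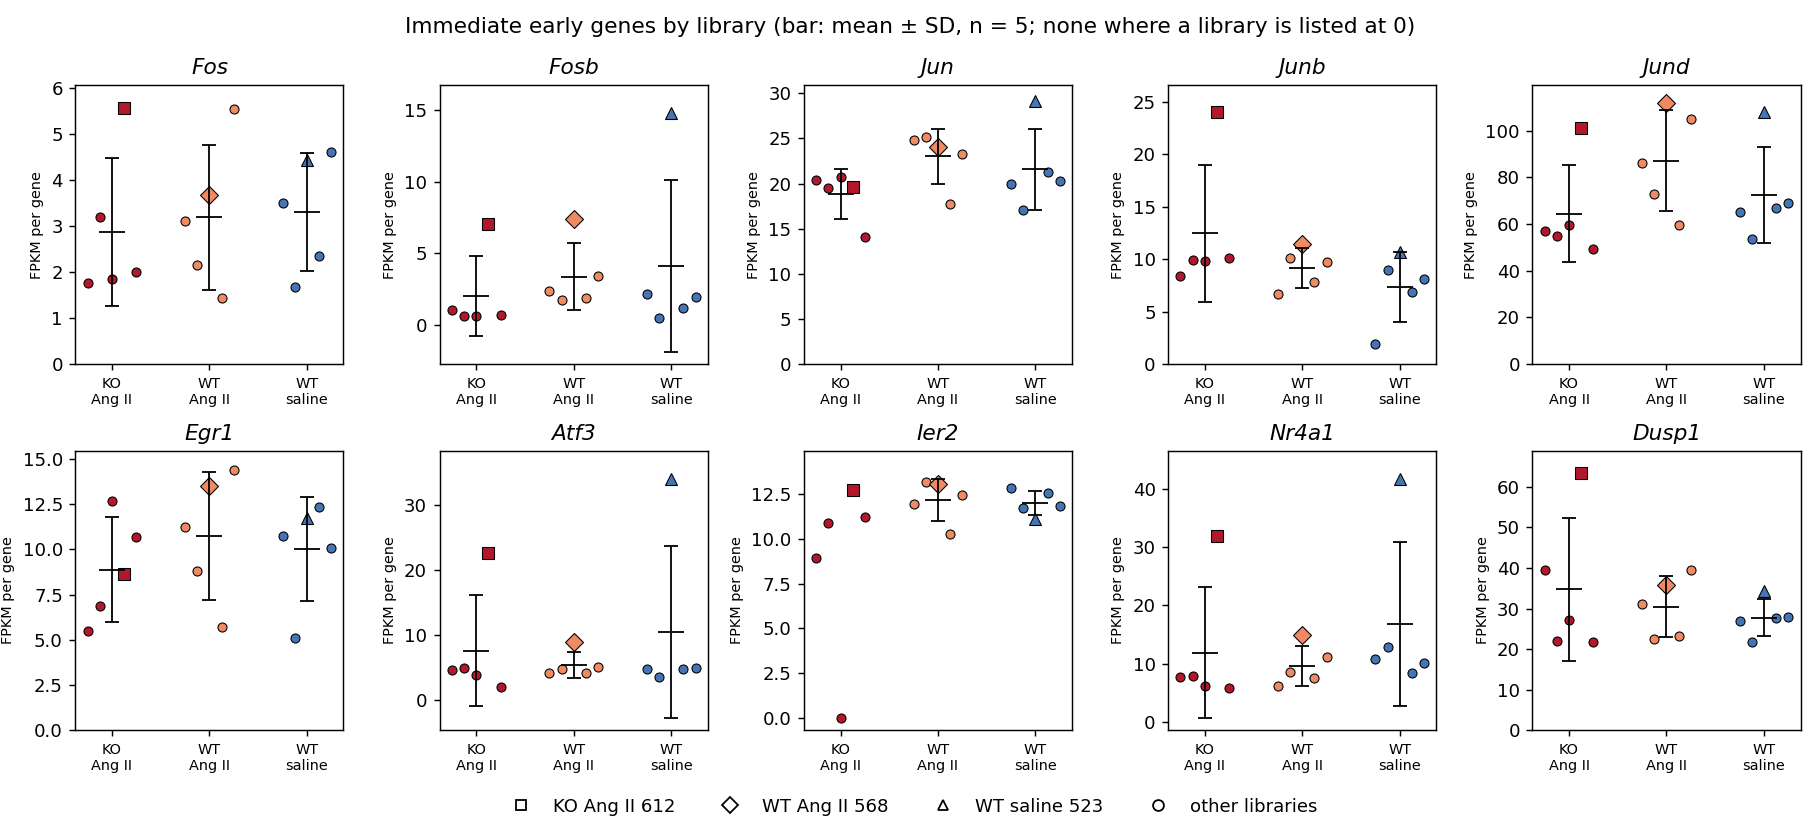
FPKM of each of the 10 genes (vertical axis, linear) in each library, with KO Ang II left, WT Ang II in the middle and WT saline right; points are libraries and bars are the mean ± SD of 5 libraries, left out where a library is listed at 0. KOAngII612 and WTNS_523 lie well above the rest of their groups for Fosb, Atf3 and Nr4a1, and the groups overlap for every gene.

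Fos (GRCm38 chromosome 12, 85473890 to 85477273, plus strand) codes for the founding member of the AP-1 family, which binds DNA only as a partner of a Jun protein. FPKM of Fos were 1.76, 3.20, 1.86, 5.57 and 2.003 in KO Ang II, against 3.12, 2.16, 3.69, 1.44 and 5.54 in WT Ang II. WT saline had 3.49, 1.68, 4.44, 2.36 and 4.60 FPKM. KOAngII612 was the highest of KO Ang II and the other libraries of that group lay within the range of both WT groups. The means were 2.88 ± 1.61, 3.19 ± 1.57 and 3.31 ± 1.28 FPKM in KO Ang II, WT Ang II and WT saline (SD, n = 5 each). On the log2(FPKM + 1) scale the difference between KO Ang II and WT Ang II was -0.11 (SE 0.31, adjusted p = 0.928), and the one between WT Ang II and WT saline was -0.07 (SE 0.31, adjusted p = 0.981).

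Fosb (GRCm38 chromosome 7, 19302696 to 19310051, minus strand) codes for a Fos relative best known from neurons, where a spliced form outlasts the stimulus. Its FPKM were 1.01, 0.654, 0.647, 7.05 and 0.718 in KO Ang II. WT Ang II had 2.37, 1.73, 7.37, 1.90 and 3.39 FPKM, and WT saline had 2.14, 0.463, 14.8, 1.19 and 1.97 FPKM. Thus 1 library in each group had at least 2 times the median of its group, and apart from KOAngII612 the KO Ang II values were all below the lowest WT Ang II value. Means of Fosb were 2.02 ± 2.82, 3.35 ± 2.34 and 4.11 ± 6.01 FPKM in KO Ang II, WT Ang II and WT saline (SD, n = 5 each). The difference between KO Ang II and WT Ang II was -0.74 (SE 0.60, adjusted p = 0.707), and the one between KO Ang II and WT saline -0.53 (SE 0.60, adjusted p = 0.877). Without KOAngII612 and WTNS_523 the Fosb difference between KO Ang II and WT Ang II was -1.18 (unadjusted p = 0.00313, adjusted p = 0.328), which still missed the threshold. The annotated Fosb transcript ENSMUST00000208505 is in the WT tables and not in the KO Ang II table, where it counted as 0. It had 0, 0.255, 1.18, 0 and 0.864 FPKM in WT Ang II. In WT saline it had 0.752, 0, 2.96, 0 and 0 FPKM. The Fosb sums of KO Ang II and WT are thus not over the same transcripts.

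Jun (GRCm38 chromosome 4, 95049034 to 95052222, minus strand) codes for the subunit that gives AP-1 much of its activity and can pair with itself. FPKM of Jun were 20.4, 19.5, 20.7, 19.6 and 14.1 in KO Ang II, and 24.8, 25.2, 24.1, 17.8 and 23.3 in WT Ang II. In WT saline they were 19.97, 17.1, 29.2, 21.3 and 20.2. Jun varied least of the 10 genes, 4 of the 5 WT Ang II values lay above every KO Ang II value, and KOAngII612 did not stand out. With means of 18.9 ± 2.73 FPKM in KO Ang II and 23.0 ± 3.03 in WT Ang II (SD, n = 5 each), the log2 difference was -0.28 (SE 0.15, unadjusted p = 0.0826, adjusted p = 0.633). WT saline averaged 21.6 ± 4.53 FPKM (SD, n = 5), from which WT Ang II differed by 0.10 (SE 0.15, adjusted p = 0.952).

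Junb (GRCm38 chromosome 8, 84974484 to 84978718, minus strand) codes for a Jun relative that tempers AP-1 and takes part in vascular smooth muscle contraction. Its FPKM were 8.43, 9.89, 9.88, 24.05 and 10.1 in KO Ang II, and 6.69, 10.1, 11.5, 7.82 and 9.70 in WT Ang II. WT saline had 1.95, 8.95, 10.7, 6.87 and 8.17 FPKM. The high value of KOAngII612 and the low value of WTNS_369 set the ends of the range, and the other 13 libraries lay between 6.69 and 11.5 FPKM. KO Ang II averaged 12.5 ± 6.50 FPKM, WT Ang II 9.16 ± 1.90 and WT saline 7.34 ± 3.32 (SD, n = 5 each). Among the 30 tests of the 10 genes, KO Ang II against WT saline in Junb had the smallest unadjusted p, with a log2 difference of 0.73 (SE 0.34, unadjusted p = 0.0524, adjusted p = 0.608). The Junb gene overlaps Prdx2 on the opposite strand at its 3′ end, and since the use of strand is not stated, reads of the overlap cannot be told apart.

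Jund (GRCm38 chromosome 8, 70698949 to 70700616, plus strand) codes for the Jun relative that resting cells make most steadily, and it had the highest FPKM of the 10 genes. FPKM of Jund were 56.9, 54.9, 59.7, 101 and 49.5 in KO Ang II, and 85.9, 72.9, 112, 59.7 and 105 in WT Ang II. For WT saline the values were 65.0, 53.4, 108, 66.8 and 68.9. In KO Ang II 4 of the 5 libraries lay at or below 59.7 FPKM, which was also about the lowest WT Ang II value, while KOAngII612 lay among the upper WT Ang II values. Means were 64.4 ± 20.8 FPKM in KO Ang II, 87.0 ± 21.7 in WT Ang II and 72.4 ± 20.7 in WT saline (SD, n = 5 each). Between KO Ang II and WT Ang II the log2 difference was -0.44 (SE 0.23, unadjusted p = 0.0740, adjusted p = 0.630). Leaving out KOAngII612 and WTNS_523 moved it to -0.61 (unadjusted p = 0.00356, adjusted p = 0.328). The annotated gene Gm11175 lies antisense to Jund, and Junos antisense to Jun, and without strand their reads cannot be told apart.

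Atf3 (GRCm38 chromosome 1, 191170296 to 191218039, minus strand) codes for a stress-induced ATF/CREB family factor that pairs with Jun proteins and often represses its targets. In KO Ang II its FPKM were 4.58, 4.85, 3.80, 22.6 and 2.01, and in WT Ang II it had 4.10, 4.75, 8.94, 4.15 and 5.03 FPKM. WT saline had 4.71, 3.52, 34.0, 4.80 and 4.91 FPKM. Leaving aside KOAngII612, WTAngII568 and WTNS_523, 1 in each group, the 12 other libraries lay between 2.01 and 5.03 FPKM with no order by group. In reads worked out from the step of 1 read, Atf3 had 281 to 4465 over the 15 libraries. Means of Atf3 were 7.58 ± 8.49, 5.39 ± 2.02 and 10.4 ± 13.2 FPKM in KO Ang II, WT Ang II and WT saline (SD, n = 5 each), so the SD exceeded the mean in KO Ang II and in WT saline. The difference between KO Ang II and WT Ang II was 0.06 (SE 0.57, adjusted p = 0.984), and -0.41 without KOAngII612 and WTNS_523, a change of sign. WT Ang II differed from WT saline by -0.36 (SE 0.57, adjusted p = 0.955), and by 0.18 without those libraries.

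Egr1 (chromosome 18) codes for a zinc finger factor induced by stretch, injury and growth factors in arteries. FPKM of Egr1 were 5.47, 6.86, 12.7, 8.66 and 10.7 in KO Ang II, and 11.2, 8.78, 13.5, 5.72 and 14.4 in WT Ang II. WT saline had 10.8, 5.09, 11.7, 12.3 and 10.1 FPKM. Every group spanned about the same range, and KOAngII612, high in Fosb and Atf3, was in the middle of its group. Egr1 averaged 8.87 ± 2.89 FPKM in KO Ang II, 10.7 ± 3.54 in WT Ang II and 9.99 ± 2.88 in WT saline (SD, n = 5 each), and its differences were -0.24 between KO Ang II and WT Ang II (SE 0.28, adjusted p = 0.801) and 0.08 between WT Ang II and WT saline (SE 0.28, adjusted p = 0.973).

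Ier2 (GRCm38 chromosome 8, 84661331 to 84662852, minus strand) codes for a small nuclear protein of the immediate early response. It was listed at 8.95, 10.9, 0, 12.7 and 11.2 FPKM in KO Ang II. WT Ang II had 11.9, 13.2, 13.1, 10.3 and 12.4 FPKM, and WT saline had 12.8, 11.7, 11.1, 12.5 and 11.8 FPKM. A single library, KOAngII560, is listed at 0, and the other 14 lay between 8.95 and 13.2 FPKM, with KOAngII612 and WTNS_523 inside that range. The fit with all libraries gave -0.86 between KO Ang II and WT Ang II (SE 0.54, adjusted p = 0.655), and the fit without KOAngII560 gave -0.14. A value listed at 0 in a table of this kind can be a failed estimate, and whether this one is was not tested.

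Nr4a1 (GRCm38 chromosome 15, 101254269 to 101274795, plus strand) codes for an orphan nuclear receptor that restrains inflammation and smooth muscle growth in arteries. FPKM of Nr4a1 were 7.63, 7.81, 6.21, 32.0 and 5.82 in KO Ang II, and 6.12, 8.52, 14.8, 7.56 and 11.1 in WT Ang II. The WT saline values were 10.8, 12.9, 41.7, 8.36 and 10.1. As in Atf3, the highest libraries of the groups were KOAngII612, WTAngII568 and WTNS_523, and the KO Ang II libraries other than KOAngII612 all lay below the lowest WT saline value of 8.36. Means were 11.9 ± 11.3 FPKM in KO Ang II, 9.62 ± 3.43 in WT Ang II and 16.8 ± 14.1 in WT saline (SD, n = 5 each). KO Ang II differed from WT saline by -0.51 (SE 0.46, adjusted p = 0.846), and without KOAngII612 and WTNS_523 by -0.55 (unadjusted p = 0.0317, adjusted p = 0.439). WT Ang II differed from WT saline by -0.54 (SE 0.46, adjusted p = 0.941).

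Dusp1 (GRCm38 chromosome 17, 26505590 to 26562128, minus strand) codes for the nuclear phosphatase that inactivates p38, JNK and ERK. Its FPKM, added up over 3 annotated transcripts, were 39.6, 21.9, 27.2, 63.5 and 21.8 in KO Ang II. WT Ang II had 31.2, 22.4, 35.8, 23.3 and 39.4 FPKM, and WT saline had 27.0, 21.7, 34.4, 27.6 and 28.0 FPKM. KOAngII612 and WTNS_523 were again the highest of their groups, and the groups overlapped through most of their range. KO Ang II averaged 34.8 ± 17.6 FPKM, WT Ang II 30.4 ± 7.52 and WT saline 27.8 ± 4.50 (SD, n = 5 each). Differences were 0.10 between KO Ang II and WT Ang II (SE 0.26, adjusted p = 0.926) and 0.11 between WT Ang II and WT saline (SE 0.26, adjusted p = 0.969).

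The transcripts of Dusp1 did not share this pattern equally. The spliced coding transcript ENSMUST00000025025 had 32.7, 10.1, 4.18, 55.4 and 5.46 FPKM in KO Ang II. In WT Ang II it had 6.64, 6.08, 12.9, 7.50 and 8.81 FPKM, and in WT saline it had 2.77, 6.80, 9.78, 5.85 and 7.39 FPKM. As a share of the gene's FPKM this transcript took 82.8%, 46.3%, 15.4%, 87.2% and 25.1% in KO Ang II, 21.3% to 35.9% in WT Ang II and 10.3% to 31.3% in WT saline. In this share KOAng_II402, KOAngII537 and KOAngII612 lay above all WT libraries, and KOAngII560 and KOAngII628 within their range. The retained-intron transcript ENSMUST00000126178 had 4.04, 9.26, 17.4, 5.45 and 13.3 FPKM in KO Ang II, against 13.0 to 27.3 FPKM in WT Ang II and 11.9 to 21.3 FPKM in WT saline. These shares rest on how the authors' program, not given in the sources used here, assigned reads that fit several transcripts, and the difference in share was not tested.

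**Figure D2:**
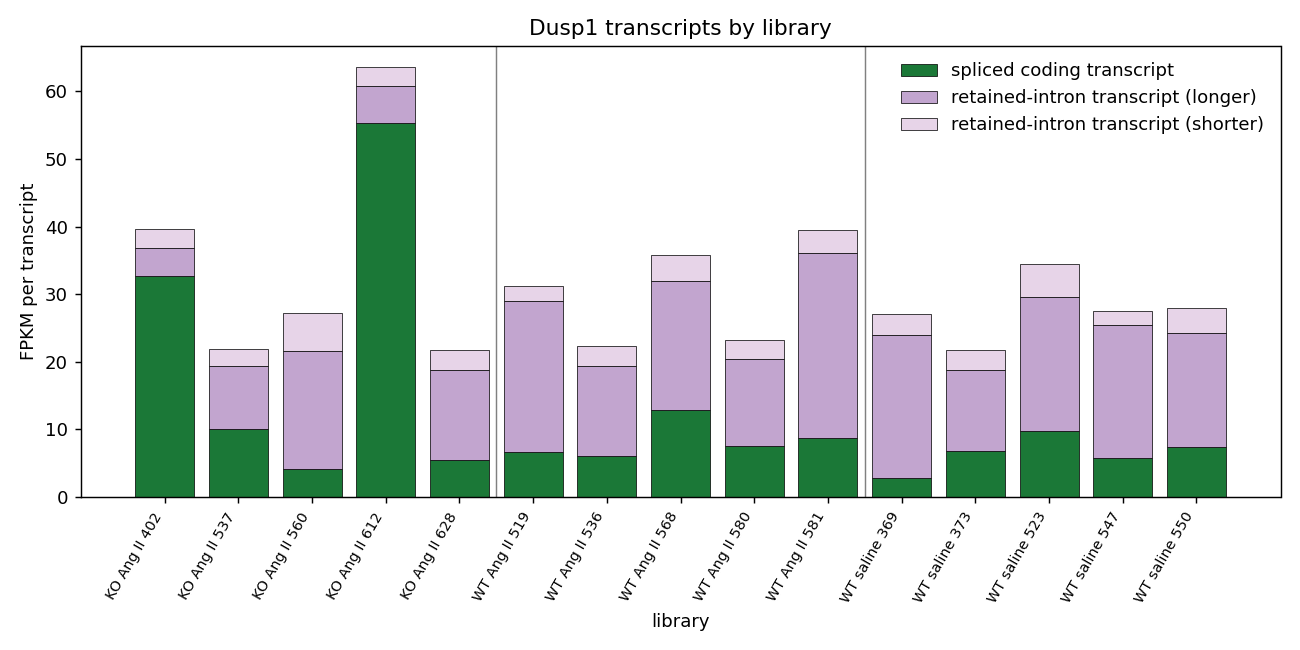
FPKM of the 3 annotated Dusp1 transcripts (vertical axis, stacked to the sum of the gene) in each library, with KO Ang II left, WT Ang II in the middle and WT saline right. The spliced coding transcript takes 82.8% and 87.2% of the sum in KOAng_II402 and KOAngII612, and at most 35.9% in any WT library.

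Taking the 10 genes together, KO Ang II was lower than WT Ang II for 6 of them, with log2 differences from -0.86 for Ier2 to 0.33 for Junb and a median of -0.18, against -0.01 for all genes tested. WT Ang II was higher than WT saline for 7, from -0.54 for Nr4a1 to 0.40 for Junb, with a median of 0.09 against 0.01 for all genes. KO Ang II was lower than WT saline for 8, from -0.84 for Ier2 to 0.73 for Junb, with a median of -0.18 against 0.02 for all genes. The Ier2 differences of KO Ang II rest on KOAngII560, listed at 0. Without it they were -0.14 from WT Ang II and -0.13 from WT saline. The comparisons share libraries, so these medians are not separate pieces of evidence. Adjusted p ran from 0.630 to 0.991 between KO Ang II and WT Ang II, from 0.941 to 0.997 in WT Ang II against WT saline and from 0.608 to 0.930 in KO Ang II against WT saline.

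Leaving out KOAngII612 and WTNS_523 left 9 of the 10 genes lower in KO Ang II than in WT Ang II, the exception being Junb at 0.08, with a median of -0.36. Over all genes in this fit 52.5% were lower in KO Ang II and the median was -0.02. KOAngII612 had been singled out for high values of these same genes, so its removal lowers the KO Ang II means of the 8 in which it was the highest. WTNS_523 had been singled out likewise. Its removal lowers the WT saline means of the 7 in which it was the highest, Fosb and Jund among them. Between KO Ang II and WT Ang II, 2 genes reached an unadjusted p under 0.05, Fosb and Jund, both lower in KO Ang II, where 11.0% of all genes reached that p. In WT Ang II against WT saline it was again Fosb (0.76, unadjusted p = 0.0350) and Jund (0.42, unadjusted p = 0.0301), both higher in WT Ang II, against 6.82% of all genes. With all libraries kept, limma gave 0.21 for Fosb (unadjusted p = 0.729) and 0.27 for Jund (unadjusted p = 0.263). Without KOAngII612 and WTNS_523, Nr4a1 alone reached an unadjusted p under 0.05 in KO Ang II against WT saline, against 9.92% of all genes. In this fit too, 0 of the 10 genes passed the adjusted threshold. WTAngII568, the highest WT Ang II library in Fosb and Jund, stayed in this fit. With WTAngII568 also left out, 0 of the 10 reached an unadjusted p under 0.05 in WT Ang II against WT saline. The median there was 0.09. Between KO Ang II and WT Ang II 2 still reached it, with 9 of the 10 lower and a median of -0.25. The shares over all genes in that fit were not worked out. Marker means as covariates turned the direction between the Ang II groups and between the WT groups. KO Ang II was then higher than WT Ang II for 7 of the 10 genes, with a median of 0.29. WT Ang II was lower than WT saline for 7, with a median of -0.11. KO Ang II stayed lower than WT saline for 6, with a median of -0.04. With these covariates 0 of the 10 reached an unadjusted p under 0.05 in any comparison.

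**Figure D3:**
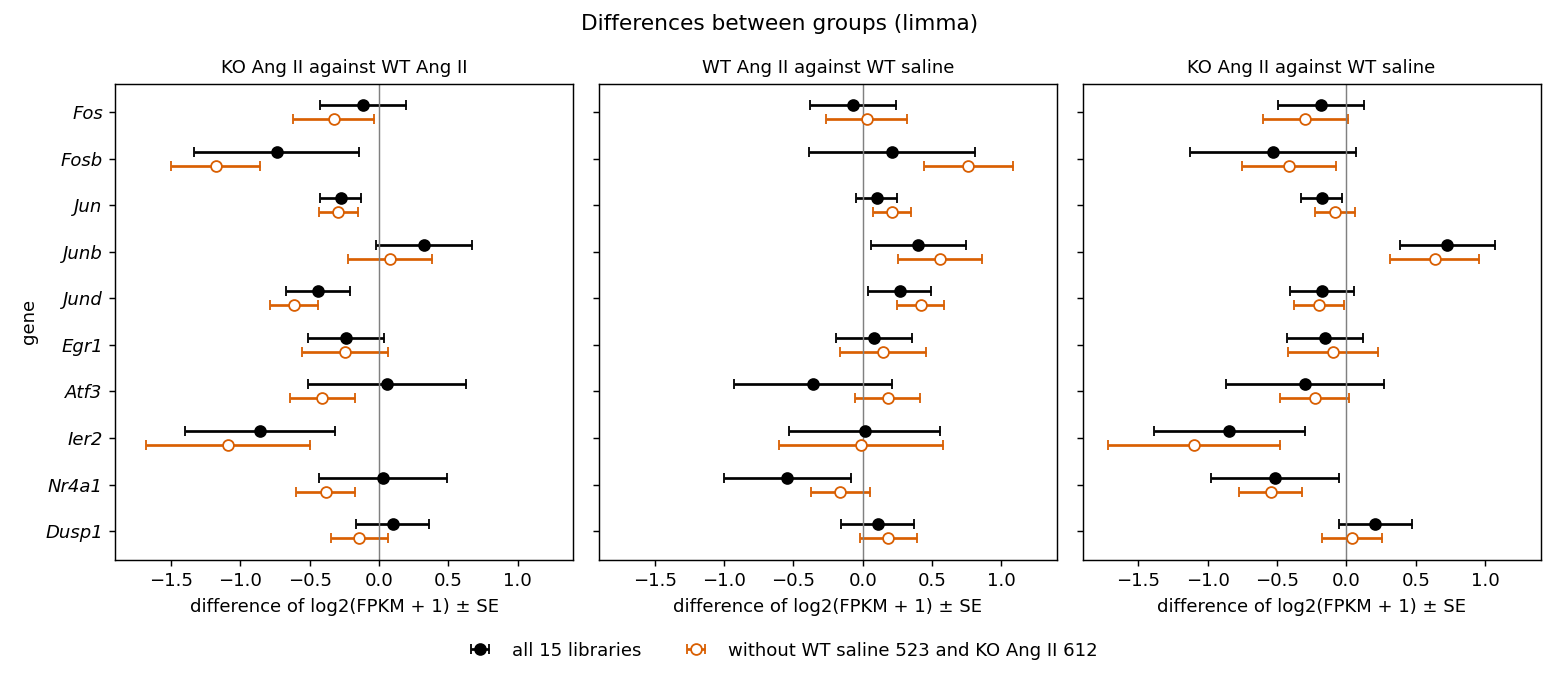
Log2 differences of FPKM + 1 (horizontal axis) for each of the 10 genes in the 3 comparisons, with bars of 1 standard error from limma, filled for all 15 libraries and open without WTNS_523 and KOAngII612. Atf3, Nr4a1 and Dusp1 change sign between KO Ang II and WT Ang II when these libraries are left out.

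Variation between libraries of a group was large for part of these genes. The SD within groups on the log2 scale was 1.02 for Fosb, larger than in 95.7% of all genes tested, 0.977 for Atf3, larger than in 94.9%, and 0.787 for Nr4a1, larger than in 89.8%. For Ier2 it was 0.931, which includes the library listed at 0. Junb had 0.582, Fos 0.513, Egr1 0.460, Dusp1 0.442 and Jund 0.378, and Jun 0.231, with 25.1% of genes below it. The median over the 10 genes was 0.55, against 0.354 over all genes.

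High values fell on the same few libraries. KOAngII612 was the highest of its group in 8 of the 10 genes, where it was the highest in 27.3% of all genes tested, and had at least 2 times the group median in 6, which were Fos, Fosb, Junb, Atf3, Nr4a1 and Dusp1, against 4.33% of all genes. WTNS_523 was the highest of its group in 7 of the 10 genes (26.4% of all genes) and at least 2 times the group median in 3, Fosb, Atf3 and Nr4a1 (5.19%). WTAngII568 was the highest in 5 (19.6%) and at least 2 times the median in Fosb alone (2.85%). At the low end, WTNS_373 was the lowest of its group in 7 genes (31.6% of all genes), WTAngII580 in 5 (34.1%) and KOAngII628 in 5 (28.2%).

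Above the mean of the other KO Ang II libraries, KOAngII612 lay by 2.34 in Atf3, 2.20 in Fosb, 2.08 in Nr4a1, 1.25 in Junb, 1.22 in Dusp1 and 1.06 in Fos on the log2(FPKM + 1) scale. It lay above them by only 0.08 in Jun and 0.02 in Egr1. The median over the 10 genes was 1.19 for KOAngII612, 0.66 for WTNS_523 and 0.43 for WTAngII568. Each of the 3 groups thus held a library that was the highest of its group in Fosb, Atf3 and Nr4a1.

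**Figure D4:**
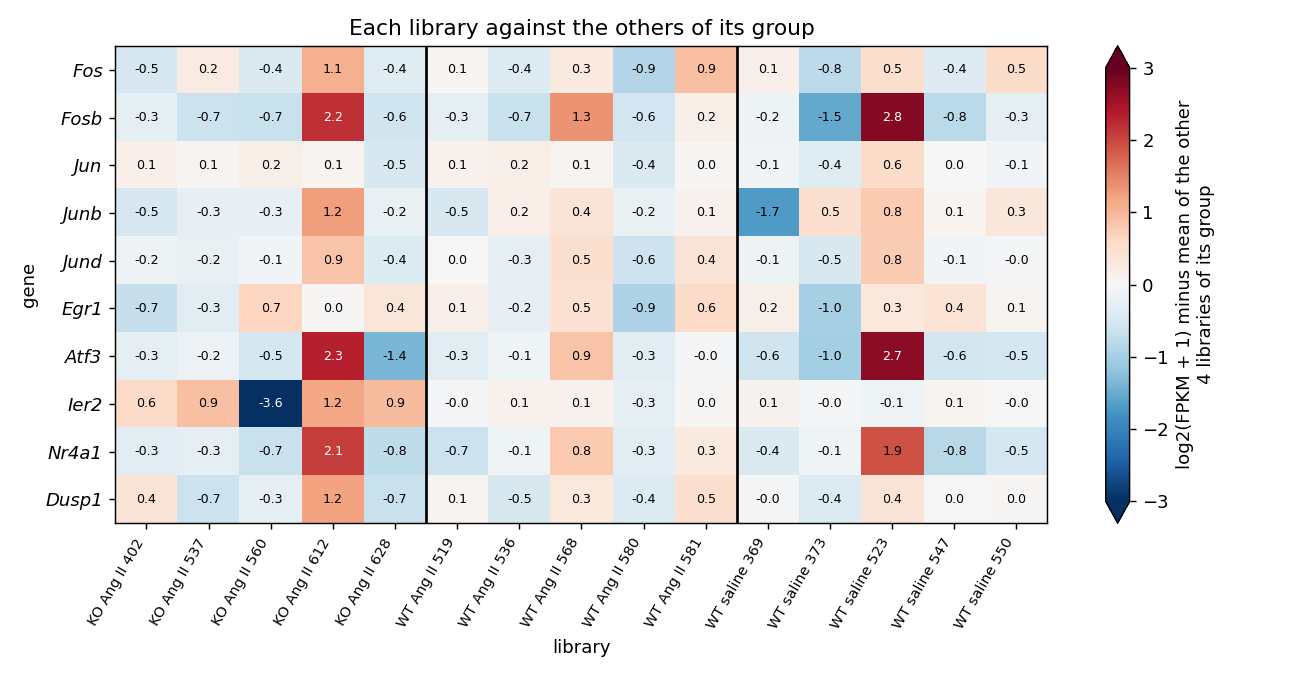
Log2(FPKM + 1) of each of the 10 genes in each library minus the mean of the other libraries of its group, with KO Ang II left, WT Ang II in the middle and WT saline right. KOAngII612, WTAngII568 and WTNS_523 show the highest values of their groups for Fosb, Atf3 and Nr4a1, while Jun and Egr1 in KOAngII612 stay near the other libraries; in Ier2 the 4 other KO Ang II libraries are set against a mean that includes KOAngII560, listed at 0.

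Markers of other tissues moved with the high and the low libraries in part. Endothelial markers, 9 of 9 listed and none at 0, summed to 176 FPKM in KOAngII612 and 208 FPKM in WTNS_523, the lowest of their groups, whose highest sums were 357 FPKM in KO Ang II and 443 FPKM in WT saline. White adipocyte markers, 7 of 7 listed and none at 0, summed to 2236 FPKM in KOAngII612 and 2317 FPKM in WTNS_523, again the lowest of their groups, whose highest sums were 7357 FPKM in KO Ang II and 8033 FPKM in WT saline. Sympathetic neuron markers, 8 of 8 listed and none at 0 in either library, went opposite ways, with the lowest sum of KO Ang II (4.46 to 863 FPKM) in KOAngII612 and the highest sum of WT saline (8.96 to 435 FPKM) in WTNS_523. Skeletal muscle markers, with 7 of 10 listed and 1 of these at 0 in KOAngII612, summed to 3.73 FPKM in KOAngII612 and to 220 FPKM in WTNS_523, the highest of WT saline. Macrophage markers summed to 517 FPKM in KOAngII612, the highest of KO Ang II, and to 266 FPKM in WTNS_523, the median of WT saline. WTAngII568 did not share the low endothelial sum: its 317 FPKM was the second highest of WT Ang II (251 to 654 FPKM). Its white adipocyte sum of 2165 FPKM was low in WT Ang II (1697 to 5819 FPKM), above only that of WTAng_II519.

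The libraries that were low in many of the 10 genes had high adipocyte sums. Brown adipocyte markers, 8 of 8 listed and none at 0, summed to 2385 FPKM in KOAngII628, 2390 FPKM in WTAngII580 and 3117 FPKM in WTNS_373, each the highest of its group. Their range was 343 to 2385 FPKM in KO Ang II, 142 to 2390 FPKM in WT Ang II and 560 to 3117 FPKM in WT saline. White adipocyte sums were the highest of their groups in WTAngII580 (5819 FPKM) and WTNS_373 (8033 FPKM), while KOAngII628 had 5109 FPKM, the median of KO Ang II. Beyond the fit with marker means as covariates, which holds the means of skeletal muscle, brown adipocyte and sympathetic neuron genes, the part of these tissues in the high and low values was not tested.

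Across the 15 libraries, with each gene centred on its group means, Pearson's r over the 45 pairs of genes had a median of 0.522 and ran from -0.289 for Egr1 with Ier2 to 0.948 for Atf3 with Nr4a1. It was above 0.5 in 24 pairs and below 0 in 2. For Fosb with Atf3 it was 0.944. With the mean of all 10 centred and scaled genes, r was 0.978 for Jund, 0.937 for Fosb, 0.918 for Atf3 and 0.891 for Nr4a1, and lowest for Egr1 at 0.427 and Ier2 at 0.254. Both pairs below 0 hold Ier2, whose r values include KOAngII560, the library listed at 0. That library was also the highest of KO Ang II in Jun and Egr1. Values of r without KOAngII560 were not worked out. All these r values are a description: the points are 15 libraries, and the same few libraries were high in several of the genes.

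Of the other genes, the 8 most like this mean were Pfn1 (r 0.937), Cope (0.924), Zfand2a (0.920), Snd1 (0.919), Bdkrb2 (0.919), Pdia3 (0.915), Ptgs2 (0.914) and Arf4 (0.907), over 15 libraries. Pfn1 codes for profilin, which feeds actin filaments, and had its highest FPKM in KOAngII612 (266), WTAngII568 (252) and WTNS_523 (336). Ptgs2 codes for the inducible cyclooxygenase and is itself an immediate early gene, with 13.2 FPKM in KOAngII612, 4.37 in WTAngII568 and 4.38 in WTNS_523, and at most 3.39 FPKM in the others. Bdkrb2 codes for the bradykinin B2 receptor and Zfand2a for a zinc finger protein induced by arsenite. Pdia3 is a disulfide isomerase of the endoplasmic reticulum, Cope and Arf4 take part in transport between the endoplasmic reticulum and the Golgi, and Snd1 is an RNA-binding nuclease.

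Other immediate early genes were followed as a list of 40 symbols, of which 33 were tested. None of them passed the adjusted threshold in any comparison, and 3 reached an unadjusted p under 0.05 between KO Ang II and WT Ang II (7.94% of all genes) and 3 in WT Ang II against WT saline (4.88% of all genes). In KO Ang II against WT saline 12 of the 33 reached it, 10 of them lower in KO Ang II and 2 higher, Klf10 and Ier5l, against 8.37% of all genes. The median log2 difference of the list in that comparison was -0.18, against 0.02 for all genes. Klf2, an endothelial factor kept up by blood flow, averaged 16.3 ± 2.55 FPKM in KO Ang II and 22.8 ± 2.88 in WT saline (SD, n = 5 each), a log2 difference of -0.47 (SE 0.12, adjusted p = 0.265). Btg2, which holds back cell division, averaged 14.4 ± 2.58 FPKM in KO Ang II and 22.6 ± 4.22 in WT saline (difference -0.60, SE 0.17, adjusted p = 0.313). Errfi1, an inhibitor of the EGF receptor, averaged 36.7 ± 19.2 FPKM in KO Ang II and 90.6 ± 39.6 in WT saline (difference -1.31, SE 0.41, adjusted p = 0.347). Without KOAngII612 and WTNS_523, 10 of the 33 genes reached an unadjusted p under 0.05 between KO Ang II and WT Ang II, all 10 lower in KO Ang II, against 11.0% of all genes. KOAngII612 was the highest of KO Ang II in 22 of the 33, so its removal lowers the KO Ang II means of those genes. The count of 10 is thus no separate evidence. This list was drawn up with earlier results of these data known, so its counts are a description.

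The high libraries were often the highest of their groups in this list as well. Only KOAngII612 had many genes at 2 times the group median or more. KOAngII612 was the highest of KO Ang II in 22 of the 33 genes, against 27.3% of all genes. It had at least 2 times the group median in 10, among them Nr4a2, Nr4a3, Myc, Arc and Ptgs2, against 4.33% of all genes. WTAngII568 was the highest of its group in 17 (19.6% of all genes) and at least 2 times the median in 0 (2.85% of all genes). WTNS_523 was the highest in 14 (26.4% of all genes) and at least 2 times the median in 2, Arc and Ptgs2 (5.19% of all genes). The 11 heat shock genes followed here respond to unfolded protein. KOAngII612 was the highest of its group in 9 of the 11 (27.3% of all genes) and WTNS_523 in 7 (26.4%). At least 2 times the group median were Hspa8 and Hspa1b in KOAngII612 (4.33% of all genes), and Dnajb1, Hspd1, Hspa1a and Hspa1b in WTNS_523 (5.19%).

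The remaining AP-1 and CREB/ATF genes, 14 tested of 18, had 0 calls and a median of -0.25 between KO Ang II and WT Ang II, with 11 of the 14 lower in KO Ang II, against -0.01 for all genes. At an unadjusted p under 0.05 they numbered 2 in that comparison (7.94% of all genes), 1 in WT Ang II against WT saline (4.88% of all genes) and 2 in KO Ang II against WT saline (8.37% of all genes). Maff, a small Maf protein that the list of immediate early genes also holds, averaged 11.6 ± 7.57 FPKM in KO Ang II and 18.1 ± 5.78 in WT Ang II (SD, n = 5 each), with a log2 difference of -0.70 (SE 0.30, adjusted p = 0.622). Mafk, its relative, averaged 35.5 ± 12.8 FPKM in KO Ang II and 48.4 ± 9.31 in WT Ang II (difference -0.48, SE 0.22, adjusted p = 0.622). Atf5, a stress factor of the ATF family, averaged 78.1 ± 5.64 FPKM in KO Ang II and 112 ± 28.6 in WT saline (difference -0.49, SE 0.14, adjusted p = 0.313).

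Upstream of the immediate early genes, 24 regulators were tested and 0 were called, among them Srf, its Elk partners, CREB and MAP kinases. An unadjusted p under 0.05 was reached by 2 of them between KO Ang II and WT Ang II (7.94% of all genes), by 1 in WT Ang II against WT saline (4.88% of all genes) and by 4 in KO Ang II against WT saline (8.37% of all genes). Braf, the kinase that starts the ERK cascade, averaged 0.496 ± 0.209 FPKM in KO Ang II, 1.25 ± 0.572 in WT Ang II and 1.80 ± 0.502 in WT saline (SD, n = 5 each). Its log2 difference between KO Ang II and WT saline was -0.90 (SE 0.19, adjusted p = 0.136). The Braf transcript ENSMUST00000002487 is listed in the WT tables only, and over the transcripts in both tables the means were 0.496 ± 0.209 FPKM in KO Ang II, 0.863 ± 0.613 in WT Ang II and 1.19 ± 0.696 in WT saline. Mapk14, which codes for p38 alpha, averaged 7.76 ± 1.45 FPKM in KO Ang II and 19.7 ± 7.83 in WT saline (difference -1.14, SE 0.37, adjusted p = 0.382). Mapk8, which codes for JNK1, averaged 4.61 ± 0.986 FPKM in WT Ang II and 6.89 ± 1.18 in WT saline (difference -0.50, SE 0.21, adjusted p = 0.941).

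MAP kinase phosphatases other than Dusp1, 7 tested of 9, had 0 calls and 0 genes at an unadjusted p under 0.05 in each comparison. Dusp4, a nuclear phosphatase like Dusp1, averaged 6.46 ± 2.11 FPKM in KO Ang II and 3.77 ± 2.52 in WT Ang II (difference 0.78, SE 0.45, adjusted p = 0.638). Dusp7 averaged 9.85 ± 1.83 FPKM in KO Ang II and 8.30 ± 0.613 in WT saline (difference 0.21, SE 0.13, adjusted p = 0.726), and Dusp8 5.73 ± 1.91 FPKM in KO Ang II and 8.09 ± 2.99 in WT saline (difference -0.41, SE 0.26, adjusted p = 0.729). Nab1 and Nab2, which hold back Egr1, had adjusted p from 0.969 to 0.999. Among the heat shock genes 0 were called, 2 reached an unadjusted p under 0.05, both lower in KO Ang II than in WT Ang II (7.94% of all genes), and the smallest p belonged to Dnajb4, a cochaperone with 19.3 ± 10.9 FPKM in KO Ang II and 40.4 ± 11.2 in WT Ang II (difference -1.22, SE 0.47, adjusted p = 0.622). Hsph1 followed with 31.8 ± 14.9 FPKM in KO Ang II and 46.9 ± 11.3 in WT Ang II (difference -0.62, SE 0.27, adjusted p = 0.622). Hspb1, the small heat shock protein gene of muscle, averaged 372 ± 83.7 FPKM in WT Ang II and 264 ± 48.3 in WT saline (difference 0.48, SE 0.27, adjusted p = 0.941).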

How the data were processed

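Abdominal aorta RNA of mice, in 20 libraries, 5 in each of 4 groups, was extracted with TRIzol and made into libraries with the NEBNext Ultra RNA kit, per the labels' protocols, which do not say whether strand was kept. The deposited values are FPKM per transcript, computed by the authors. The submitters' processing notes name bcl2fastq, FastQC, fastp and mm10, with no aligner or quantifier (not given in the sources used here). For each gene of GENCODE M21 (GRCm38), the FPKM of its annotated transcripts were summed, and transcripts missing from a table counted as 0. The WT and the KO Ang II tables both held 14604 of 15346 genes, and 12645 of these reached the minimum mean of 1 FPKM across 15 libraries and were tested. The KO saline tables hold 2025 transcripts, none of the 10 genes, and were not compared; their description calls them WT, while title and genotype say KO.

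Differences of log2(FPKM + 1) were tested with limma 3.58.1 (R 4.3.3, trend and robust options, 3 groups in 1 model), with a Benjamini-Hochberg threshold of 0.05 over all genes, within each of 3 comparisons; the pseudocount of 1 understates differences of low genes. The test was checked on simulated data. The simulation drew normal values independently for each gene and library, so it does not cover libraries that are high in many genes at once. Each title carries its own number, but the labels do not state that libraries are separate animals, so p-values measure the spread between these samples, which may be technical. Depth was worked out from the steps of 1 read: 97.9% to 99.1% of values below 50 reads lay within 0.05 of a whole number. Promoter sequences are from RefSeq (GRCm38.p6).

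The 10 genes, the other gene lists and the markers were chosen with earlier results of these data known. The rule for other named genes took, per list, the members called or else the 3 with the smallest p in any comparison, and the 8 genes most like the mean of the 10. Besides those, genes singled out for being at least 2 times the median of a group were named after their values were seen. Alternatives covered the pseudocount, the filter, unlisted transcripts, scaling, voom on recovered reads, library weights, left-out libraries and marker covariates.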

Additional observations from a re-analysis of the deposited data

Results flagged for a closer look

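Of 30 sets of 5 libraries (10 genes in 3 groups), 12 held a library whose gap to the nearest other took more than 0.71 of the range, Dixon's limit for 5 values. Chance flags about 1 in 20 sets, and among all genes tested 9.78% of KO Ang II sets, 10.8% of WT Ang II sets and 9.78% of WT saline sets were flagged.

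KOAngII612 was flagged as high in 5 of the 10 genes, against 3.72% of all genes. It had 7.05 FPKM in Fosb (the other libraries of its group 0.647 to 1.01), 24.05 in Junb (8.43 to 10.1), 101 in Jund (49.5 to 59.7), 22.6 in Atf3 (2.01 to 4.85) and 32.0 in Nr4a1 (5.82 to 7.81). WTAngII568 was flagged as high in Atf3 alone, with 8.94 FPKM against 4.10 to 5.03 in the others of its group. WTNS_523 was flagged as high in 4 genes, against 2.33% of all genes. Its FPKM were 14.8 in Fosb (the others 0.463 to 2.14), 108 in Jund (53.4 to 68.9), 34.0 in Atf3 (3.52 to 4.91) and 41.7 in Nr4a1 (8.36 to 12.9). Jun was flagged as low in KOAngII628, with 14.1 FPKM against 19.5 to 20.7 in the others, and in WTAngII580, with 17.8 FPKM against 23.3 to 25.2.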

How the results depend on the processing

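Under 33 other settings, 741 of 794 differences of the 10 genes had the sign reported and 53 the other; 0 passed the threshold, and the smallest adjusted p was 0.131. Members called stayed at 0 throughout. No paired analysis was possible because the groups compared share no replicate numbers. KO Ang II against WT saline has no value in the split by intestinal transcripts, since all KO Ang II libraries carry them.

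The 13 genes called in KO Ang II against WT saline were 0 at a mean of at least 5 FPKM, 30 with quality weights, 0 without libraries numbered below 500, 0 with marker covariates, and 0 without WTNS_523 and KOAngII612, or these and WTAngII568. Leaving out each library in turn gave 7 to 15, with 7 without KOAngII537 and 8 without WTNS_547. KO Ang II against WT Ang II gave 6 in libraries with intestinal transcripts and 0 to 7 with each library left out, 7 without WTAngII580 and 2 without WTAngII581. WT Ang II against WT saline gave 2 in libraries without intestinal transcripts and 0 to 1 with each library left out.

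Between KO Ang II and WT Ang II the sign turned for Atf3 (-0.0071) and Nr4a1 (-0.042) with voom, for Atf3 (-0.20), Nr4a1 (-0.24) and Dusp1 (-0.059) with weights, for Fos (0.30), Fosb (0.28) and Egr1 (0.19) with covariates, for Atf3 (-0.41), Nr4a1 (-0.38) and Dusp1 (-0.14) without WTNS_523 and KOAngII612, and for Atf3 (-0.24), Nr4a1 (-0.23) and Dusp1 (-0.077) without WTAngII568 as well. In WT Ang II against WT saline it turned for Fosb (-0.24), Jun (-0.026), Egr1 (-0.13) and Dusp1 (-0.0085) without libraries below 500, for Fosb (-0.11), Jun (-0.028), Egr1 (-0.30) and Dusp1 (-0.11) with covariates, for Fos (0.030), Atf3 (0.18) and Ier2 (-0.011) without WTNS_523 and KOAngII612, and for Atf3 (0.010) and Ier2 (-0.036) without WTAngII568 as well. In KO Ang II against WT saline it turned for Fosb (0.17) and Atf3 (0.16) with covariates. The cause was not tested.

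With each library left out in turn, signs turned between KO Ang II and WT Ang II for Fos (-0.33 to 0.066), Atf3 (-0.41 to 0.33), Nr4a1 (-0.38 to 0.19) and Dusp1 (-0.14 to 0.23), in WT Ang II against WT saline for Fos (-0.25 to 0.11), Fosb (-0.10 to 0.76), Egr1 (-0.12 to 0.27), Atf3 (-0.56 to 0.18) and Ier2 (-0.012 to 0.071), and in KO Ang II against WT saline for Fosb (-0.97 to 0.024), Atf3 (-0.76 to 0.24) and Dusp1 (-0.036 to 0.34).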
